A study of Mus musculus with 12 samples.

Results

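Tpm3-rs7, Gm7102, Nnt, Cap1, Selm, Gm12802 and Arf5 are 7 of the 27998 genes counted in c-Kit+ hematopoietic stem and progenitor cells (HSPCs) of mouse bone marrow. They were chosen because, in earlier results from these same counts, their levels separated the libraries into high and low ones in the way variants that differ between mouse strains can do. The split itself is therefore a description, carries no p-value and supports nothing. The UMI tables hold no read sequence, so whether a strain variant lies behind any split was not tested. All 7 genes were found in every table, and of all 27998 genes 19993 had at least 1 UMI.

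All mice had received pIpC, a synthetic double-stranded RNA that induces Mx1-Cre, in 5 injections at 20 mg/ml from an age of 8 to 12 weeks, as the labels give it. The text of the study gives a younger age at pIpC, so this age is uncertain. The WT mice lacked Mx1-Cre. E2-KO mice carried Mx1-Cre and homozygous floxed Ezh2, the gene of the histone H3 lysine 27 methyltransferase of Polycomb repressive complex 2. G12D mice carried Mx1-Cre and 1 inducible NRas allele encoding an activated RAS GTPase, and G12D/E2-KO mice carried Mx1-Cre with both alterations. Mx1-Cre acts in hematopoietic cells and in other cells that respond to interferon, and its presence cannot be told apart from the mutations in a comparison with WT. Each genotype was sampled with 1 library at each of 3 time points, T1 at 2 weeks, T2 at 2 months and T3 at 4 months from pIpC, giving 12 libraries and 3 per genotype. The methods of the study place all lines on a C57BL/6 background, and how many mice entered a library is not given in the sources used here. P-values between genotypes thus measure the spread between libraries, which is estimated over all 12 libraries together.

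The libraries held 2350 to 3767 cells and 12636998 to 23646292 UMIs (unique molecular identifiers, 1 per captured RNA molecule). Levels are CPM, the UMIs of a gene per 1000000 UMIs of its library, and intervals are exact 95% Poisson intervals that cover counting error only. The G12D T1 and G12D/E2-KO T1 tables shared 2896 cells, matched by a similarity of their profiles above 0.9, where no other pair of libraries had cells above 0.852. In this pair the lowest similarity of a matched cell was 0.914 and the highest of the other cells 0.897. Of the matched cells, 1494 had equal counts in every gene and the others differed in some counts. They were counted in G12D/E2-KO T1 only. Ezh2 was 81.7 to 132.8 CPM in the 6 libraries of WT and G12D and 20.7 to 34.6 CPM in the 6 libraries of both Ezh2-deleted genotypes. Xist, the RNA that marks an inactive X chromosome, was 1296 to 1357 CPM in the T3 libraries of WT, E2-KO and G12D and at most 0.608 CPM in the other 9 libraries; Ddx3y, a gene of the Y chromosome, was at most 0.615 CPM in those 3 libraries and at least 29.4 CPM in the other 9. In G12D/E2-KO all libraries had Ddx3y (32.2 CPM or more) and hardly any Xist (at most 0.314 CPM). Sex is therefore not balanced between G12D/E2-KO and WT, and its part in that comparison was not tested. In WT, E2-KO and G12D only the T3 library had Xist, so sex cannot be told apart from T3 there. The time point in the fits below thus mixes time and sex in these genotypes. The progenitor markers of the gate described below were present in every library, with 66 or more cells in each of the 6 classes used.

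The 7 genes are of several kinds. A retrocopy is a gene copy made by reverse transcription of a spliced messenger RNA, so it resembles its parent gene closely and short reads can fit both. Inbred strains also carry inherited differences, and animals that stem from a cross can keep a block of the other strain's chromosome around a modified gene; Nnt of C57BL/6J mice, which has lost exons, is a widely known case of a difference between substrains. Tpm3-rs7 is a retrocopy of Tpm3, a tropomyosin that lines actin filaments. Gm7102 is an intronless gene resembling Mplkip, a nuclear protein of which loss causes brittle hair. Gm12802 is a noncoding gene on the opposite strand of Tceanc2. Arf5 is a small GTPase of vesicle traffic at the Golgi, Cap1 is a cyclase-associated protein that speeds actin turnover, Selm (Selenom in newer annotation) is a selenoprotein of the endoplasmic reticulum, and Nnt is a mitochondrial enzyme that makes NADPH.

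The sequences of Tpm3-rs7 and Gm7102 are shown beside those of the genes they resemble, because such likeness can bear on which gene a read is counted for. In GENCODE M21 on GRCm38 (mm10), Tpm3-rs7 lies on chromosome 14 from 113314608 to 113316754 on the plus strand, and its transcript matched that of Tpm3 (chromosome 3, 90072649 to 90100902, plus strand) in 2089 of 2102 aligned bases (99.4%). The stretch of 60 bases of the Tpm3-rs7 coding sequence with the most differences, bases 136 to 195 of its transcript, is set here above bases 260 to 319 of the Tpm3 transcript, with the 3 differing bases in capitals.
Tpm3-rs7: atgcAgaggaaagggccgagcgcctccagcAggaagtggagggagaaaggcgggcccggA
Tpm3: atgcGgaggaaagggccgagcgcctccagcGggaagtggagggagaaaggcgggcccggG
Of the 100-base windows in the last 500 bases of the Tpm3-rs7 transcript, where a 3' library takes its reads, 21.9% were identical to Tpm3. The pair is thus uncertain in any count, and a share of their summed UMIs is given beside the levels.

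Gm7102 lies on chromosome 19 from 61174686 to 61176309 on the minus strand, and 758 of the 789 bases aligned to Mplkip (chromosome 13, 17695192 to 17699748, plus strand) were identical (96.1%). The 60 coding bases with the most differences are bases 479 to 538 of the Gm7102 transcript and bases 237 to 296 of the Mplkip transcript, with the 9 differing bases in capitals.
Gm7102: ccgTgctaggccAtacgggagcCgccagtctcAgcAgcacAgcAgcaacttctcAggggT
Mplkip: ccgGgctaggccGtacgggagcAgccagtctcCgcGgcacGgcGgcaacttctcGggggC
The alignment covered only bases 276 to 1066 of the 1624 bases of the Gm7102 transcript. Its last 500 bases lay outside the alignment, so no 100-base window there could be identical to Mplkip. Over the whole transcript 5.18% of the windows were identical. Whether reads of Gm7102 and Mplkip are mistaken for each other was not tested.

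For each gene the libraries were ordered by level, and the split was placed at the widest gap between neighbours on a log2(CPM + 1) scale. A gap of 1 log2 unit or more was called wide. Among the 8856 genes with a mean of 5 CPM or more, 149 genes (1.68%) had a wide gap. Of these, 98 had a single library on 1 side of the gap, and 51 had 2 to 10 libraries above it. The wide gap followed genotype in 11 genes, time point in 0 and neither in 138. Of the 6 listed genes of this level, Gm7102, Tpm3-rs7, Cap1 and Selm had a wide gap, which is what the choice of genes rested on. Gm12802, with a mean of 1.55 CPM, was below the level limit.

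**Figure D1:**
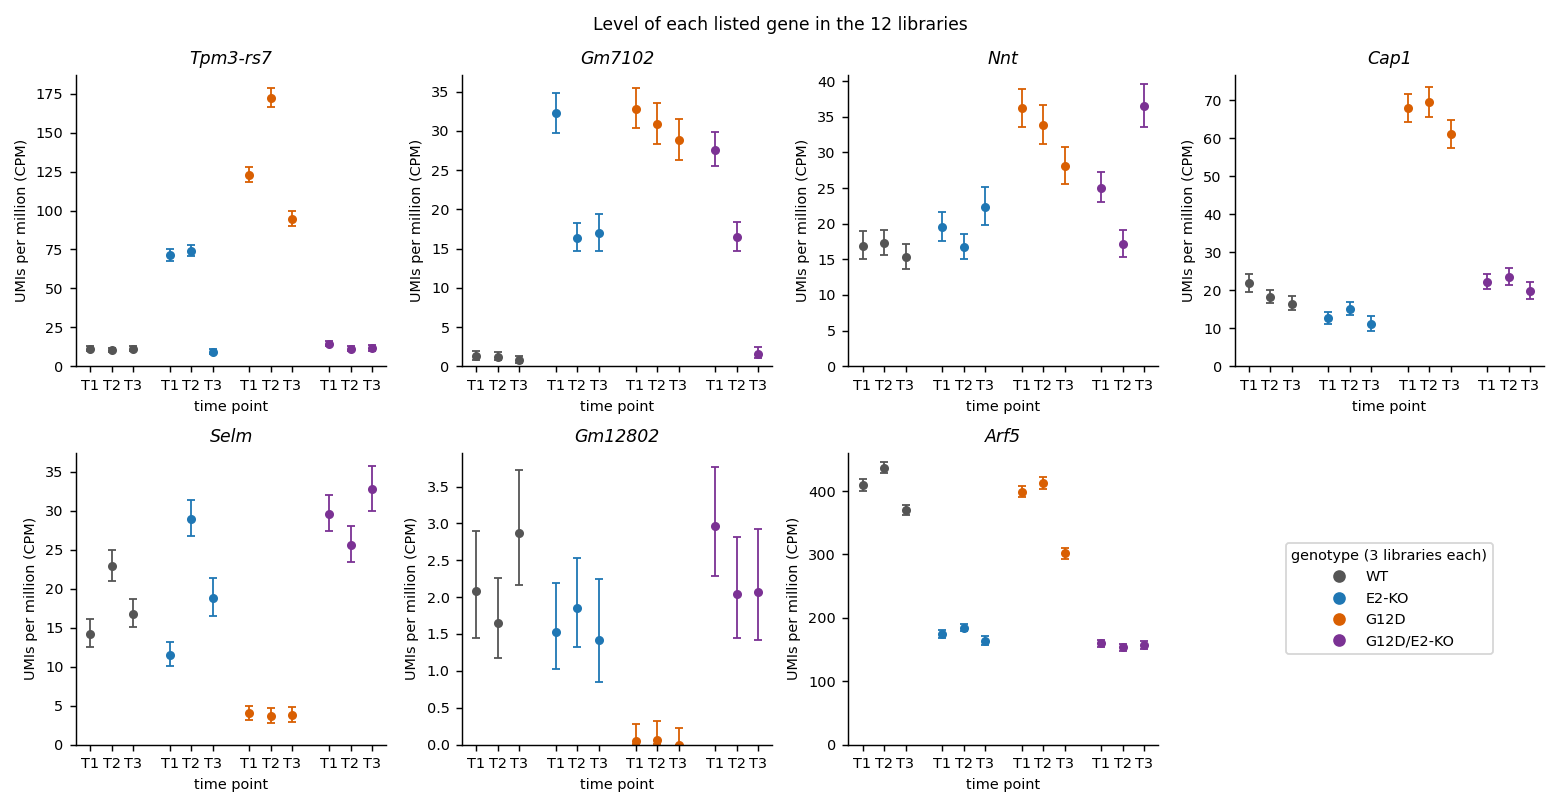
Level (CPM, y axis) of each listed gene in the 12 libraries, ordered by genotype and time point (x axis); points are libraries and bars are exact 95% Poisson intervals. Tpm3-rs7 and Gm7102 are high in some but not all libraries of the same genotype, Cap1 is high and Selm and Gm12802 are low in the 3 G12D libraries, and Arf5 is high in WT and G12D.

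Tpm3-rs7 was low in WT, at 11.2, 10.1 and 11.1 CPM at T1, T2 and T3, and in G12D/E2-KO, at 14.4, 11.3 and 11.7 CPM. In E2-KO it was 71.6 CPM at T1, 74.3 CPM at T2 and 9.18 CPM at T3, and in G12D it was 122.9, 172.5 and 94.8 CPM. The 5 high libraries thus were all of G12D and the T1 and T2 libraries of E2-KO. E2-KO T3 sat with WT, so the split followed neither genotype nor time point. E2-KO T3 was also the only E2-KO library with Xist, while G12D T3, which had Xist too, was high. The gap between G12D/E2-KO T1 and E2-KO T1 was 2.24 log2 units, the 23rd widest of the 8856 genes, and the same 5 libraries lay above the other 7 in each of the 6 cell classes examined. The 7 low libraries were close to each other, and each neighbouring pair among them had overlapping counting intervals, whereas among the high libraries G12D T3, G12D T1 and G12D T2 were each apart from the library below. The fitted log2 change from WT was 1.98 ± 0.55 (SE, n = 3 libraries per genotype) in E2-KO and 3.54 ± 0.56 in G12D, and for G12D/E2-KO it was 0.11 ± 0.53. Here and below, the SE of a change from WT is the size of the change divided by the square root of its F statistic. That F is of the edgeR quasi-likelihood test, from the fit over all 12 libraries with the time point as a factor. The SE is thus no separate measure from that test. All libraries enter each such SE, which is not the spread of the compared genotypes alone. Without E2-KO T3 the value for E2-KO was 2.58. For G12D/E2-KO, leaving out 1 library gave -0.12 to 0.61, below 0 without WT T1, WT T2 or G12D/E2-KO T3 and highest without WT T3.

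The share of Tpm3-rs7 in the summed UMIs of Tpm3-rs7 and Tpm3 fell into 3 bands. It was 5.38% to 7.98% in the 7 low libraries, over 1454 or more UMIs per library. In E2-KO T1 the share was 40.5% (Wilson 95% interval 38.9 to 42.2), in E2-KO T2 41.3%, in G12D T1 42.8% and in G12D T3 42.8%. In G12D T2 it was 71.7% (70.4 to 73.1). Intervals of the 4 middle libraries did not meet those of the bands on either side. These intervals cover counting error only, and the highest band is a single library.

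Tpm3 itself did not show the same bands. Its level was 142.9 to 160.1 CPM in WT, and the 3 E2-KO libraries had 105.1, 105.8 and 105.9 CPM. G12D/E2-KO had 252.4, 165.7 and 177.5 CPM. In G12D it was 164.1, 68.0 and 126.9 CPM, so G12D T2, the library with the highest Tpm3-rs7 level, had the lowest Tpm3 level of all 12. The pair summed to 115.1 CPM for E2-KO T3, the lowest, and to 154.0 to 286.9 CPM for the other libraries. Tpm3 and Nras lie on the same chromosome, and Nras itself was 52.5 to 80.3 CPM in all 12 libraries.

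The separation of high and low shares was also read in cells of different kinds, which are parts of the same libraries and so no separate evidence. Cells were assigned to classes by marker genes fixed by list, none of them a listed gene, and 6 classes reached 50 cells in each of the 12 libraries. They were hematopoietic stem cells with multipotent progenitors (HSC/MPP), early granulocytes together with granulocyte-macrophage progenitors (GMP/early GN), promonocytes (ProMo), late granulocytes (late GN), megakaryocyte-erythroid progenitors with early erythroid cells (MEP/early Ery) and late erythroid cells (late Ery). Between 7.08% (late Ery) and 47.3% (GMP/early GN) of the cells of a class lay near the limit of its gate. In HSC/MPP the Tpm3-rs7 share was 5.07% to 16.9% in the 7 low libraries and 42.4% to 72.3% in the 5 high libraries. In ProMo these ranges were 4.45% to 7.17% and 38.4% to 73.0%, in late GN 4.27% to 8.52% and 35.1% to 74.3%, and in MEP/early Ery 4.58% to 11.1% and 39.5% to 71.0%. Late Ery had 9 libraries with at least 20 UMIs of the pair, with 3.33% to 17.6% in 5 low libraries and 33.3% to 59.1% in 4 high libraries. The ranges of high and low libraries did not meet in any of the classes. In late Ery, however, the Wilson 95% intervals of the bands overlapped. The share there was 59.1% (38.7 to 76.7) in G12D T2 and 40.0% (26.3 to 55.4) in E2-KO T2. It was 33.3% (20.2 to 49.7) in E2-KO T1 and 17.6% (9.57 to 30.3) in E2-KO T3.

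**Figure D2:**
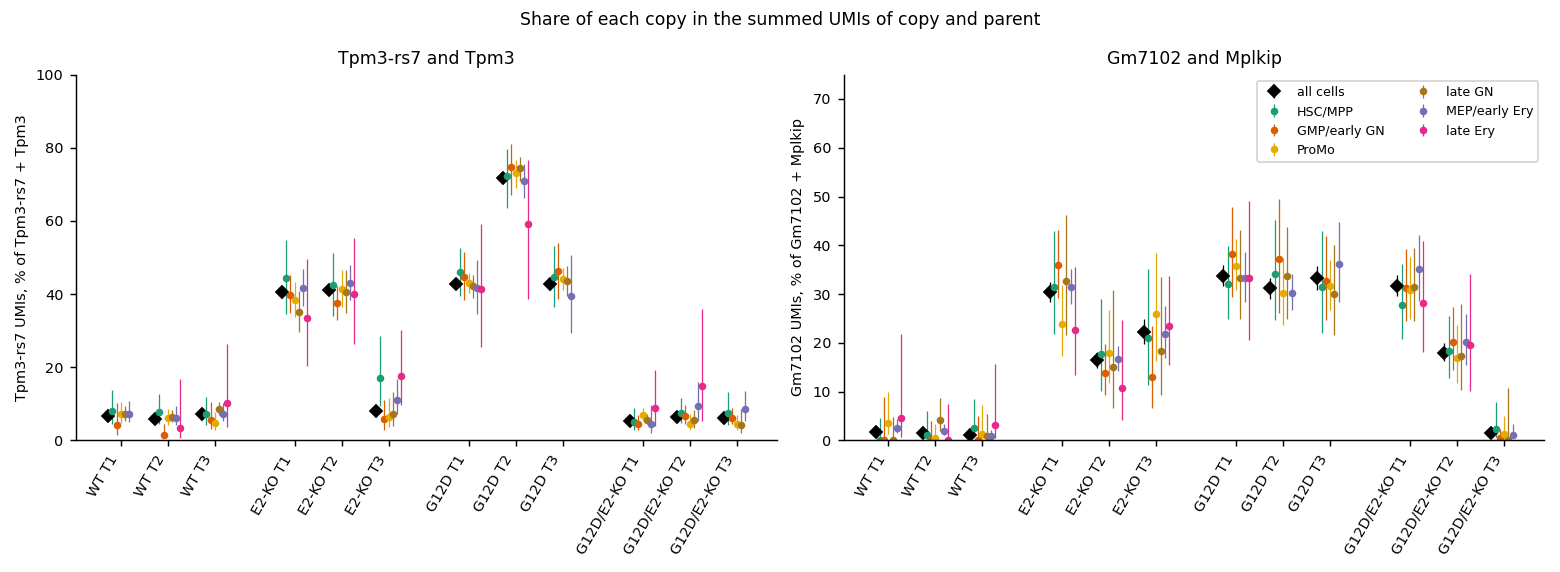
Share of Tpm3-rs7 in the UMIs of Tpm3-rs7 and Tpm3 (left, in %) and of Gm7102 in the UMIs of Gm7102 and Mplkip (right, in %) by library, for all cells (diamonds) and for 6 cell classes (circles) with at least 20 UMIs of the pair; bars are Wilson 95% intervals. Tpm3-rs7 lies at 5.38% to 7.98%, near 40.5% to 42.8% and at 71.7% over all cells, and Gm7102 at 1.14% to 1.67% or between 16.4% and 33.8%.

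Gm7102 was nearly absent from WT, at 1.31, 1.23 and 0.820 CPM at T1, T2 and T3, and from G12D/E2-KO T3, at 1.62 CPM. E2-KO T2 and T3 had 16.4 and 16.9 CPM, and G12D/E2-KO T2 had 16.4 CPM. The other 5 libraries were higher, with 32.2 CPM in E2-KO T1, 32.8, 30.8 and 28.9 CPM in the G12D libraries, and G12D/E2-KO T1 at 27.6 CPM. Gm7102 therefore had a wide gap of 2.73 log2 units and a second gap of 0.67, which was below the limit of a wide gap. These were the only 2 neighbouring pairs of libraries whose counting intervals did not overlap. Such intervals leave out the spread between libraries, so whether the 3 libraries between the gaps form a level of their own was not tested. The split followed neither genotype nor time point: libraries of G12D/E2-KO lay below the wide gap, between the gaps and above both. The fitted log2 change from WT was 4.25 ± 0.80 (SE, n = 3) for E2-KO, 4.90 ± 0.80 for G12D and 3.55 ± 0.80 for G12D/E2-KO. The last value was 2.92 without G12D/E2-KO T1 and 4.18 without G12D/E2-KO T3.

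Mplkip, the gene whose sequence was set beside that of Gm7102, was 57.9 to 74.0 CPM in the 5 libraries with the most Gm7102. It was 83.3, 59.2 and 74.8 CPM in E2-KO T2, E2-KO T3 and G12D/E2-KO T2. In the 4 libraries with the least Gm7102 it was 70.9 to 105.0 CPM. These ranges overlap, though within G12D/E2-KO Mplkip was 59.4, 74.8 and 105.0 CPM at T1, T2 and T3, in the reverse order of Gm7102. The share of Gm7102 in the summed UMIs of the pair was 1.14% to 1.67% in the 4 low libraries. It was 16.4% in E2-KO T2, 18.0% in G12D/E2-KO T2 and 22.2% in E2-KO T3, and 30.3% to 33.8% in the 5 highest libraries. In HSC/MPP the share was 0 to 2.47% in the low libraries and 17.7% to 34.2% in the other 8. In MEP/early Ery, the class with the most Gm7102 UMIs (860), the ranges were 0.988% to 2.59% and 16.7% to 36.2%. The 8 libraries with Gm7102 lay above the other 4 in all 6 classes.

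A gene with the opposite order stood out among those most like Gm7102. Hist1h4i, a histone H4 gene of the histone cluster on chromosome 13, was 83.5, 75.6 and 68.7 CPM in WT and 93.6 CPM in G12D/E2-KO T3, where Gm7102 was low. It was 52.6, 45.4 and 38.9 CPM in E2-KO T2, E2-KO T3 and G12D/E2-KO T2, and 19.2 to 22.1 CPM in the 5 libraries where Gm7102 was highest. These 3 ranges of Hist1h4i were thus held by the same libraries as the 3 ranges of Gm7102, in reverse (Pearson r = -0.91, Spearman rho = -0.85 over 12 libraries). Hist1h4i lies 4.35 Mb from Mplkip on chromosome 13, while Gm7102 is annotated on chromosome 19. Histone H4 genes are near copies of each other, so the gene to which these UMIs belong is uncertain, and the comparison was chosen by likeness to Gm7102.

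Cap1 was higher in G12D than elsewhere. It was 67.9, 69.5 and 61.0 CPM in G12D at T1, T2 and T3, against 21.8, 18.3 and 16.4 CPM in WT, 12.6, 15.1 and 11.2 CPM in E2-KO, with G12D/E2-KO at 22.1, 23.5 and 19.9 CPM. The 3 G12D libraries lay above all 9 others, among which WT and G12D/E2-KO overlapped. The gap was 1.34 log2 units and the split followed the G12D genotype. With the tables as deposited, in which G12D T1 holds the shared cells, the gap was 0.87, and with equal weight per class it was 0.97, both below the limit of a wide gap, with the same 3 libraries above it. The fitted log2 change from WT was 1.85 ± 0.13 (SE, n = 3 libraries per genotype) in G12D, -0.56 ± 0.13 in E2-KO and 0.16 ± 0.12 in G12D/E2-KO. Cap1 lies on chromosome 4 from 122859047 to 122886056 on the minus strand. The processed pseudogene Gm4817 on chromosome 14, the only copy aligned to Cap1, matched 86.7% of 1411 aligned bases with no identical 100-base window. The Cap1 paralog Cap2 was at most 1.11 CPM in any library.

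Selm showed the reverse, with the lowest levels in G12D. It was 4.01, 3.64 and 3.74 CPM in G12D at T1, T2 and T3, from 63 to 79 UMIs per library. WT had 14.2, 22.9 and 16.8 CPM, E2-KO 11.5, 29.0 and 18.8 CPM, and G12D/E2-KO 29.6, 25.6 and 32.8 CPM. All 9 other libraries were above all 3 of G12D, with a gap of 1.32 log2 units. The same libraries lay above the gap in 5 of 6 other settings. The log2 change from WT was -2.17 ± 0.29 (SE, n = 3) in G12D, 0.09 ± 0.26 in E2-KO and 0.69 ± 0.26 in G12D/E2-KO. Leaving out 1 library gave -0.22 to 0.38 in E2-KO and 0.43 to 0.94 in G12D/E2-KO. With the tables as deposited, in which G12D T1 holds the shared cells, the fall in G12D was smaller. Selm lies on chromosome 11 from 3514684 to 3517351 on the plus strand.

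Gm12802 was almost missing from G12D, with 1, 1 and 0 UMIs at T1, T2 and T3. Summed over the 3 libraries this is 2 UMIs in G12D against 130 UMIs in WT, a ratio of 0.0171 (exact 95% interval 0.00204 to 0.0628, counting error only). WT had 2.08, 1.65 and 2.87 CPM, E2-KO 1.53, 1.85 and 1.42 CPM, and G12D/E2-KO 2.96, 2.05 and 2.07 CPM. The 9 libraries outside G12D all had 18 or more UMIs and did not overlap with G12D.

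Gm12802 lies on chromosome 4 from 107126613 to 107136252 on the plus strand, and 71.3% of its exonic bases lie in exons of Tceanc2, which is read from the minus strand. Whether the counting used the strand is not given in the sources used here, so reads of Gm12802 and Tceanc2 cannot be told apart for certain. Tceanc2, which encodes a protein with a domain of transcription elongation factor A, was 7.20, 2.45 and 4.27 CPM in G12D and 13.4 to 17.5 CPM in the other 9 libraries. Both overlapping genes were thus lowest in the same 3 libraries (r = 0.91). Cap1 is 15.7 Mb away on the same chromosome, and its split had the same libraries on 1 side but in the opposite direction. Txndc12, a thioredoxin domain protein of the endoplasmic reticulum that starts 1.71 Mb from Gm12802, was 33.1 to 39.8 CPM in G12D and 14.4 to 24.9 CPM elsewhere.

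Arf5 separated the libraries by their Ezh2 genotype. It was 409.9, 437.0 and 370.1 CPM in WT and 398.9, 412.6 and 301.8 CPM in G12D at T1, T2 and T3. In E2-KO it was 174.5, 184.3 and 164.0 CPM, and in G12D/E2-KO 159.9, 153.2 and 157.3 CPM. The 6 libraries with intact Ezh2 lay above the 6 Ezh2-deleted libraries without overlap. How many of all genes separate these genotypes without overlap was not counted. The gap of 0.71 log2 units was not wide and ranked 389th of the 8856 genes, but without G12D T3 it was 1.002 and passed the limit. The 6 high libraries were themselves spread, and G12D T3 and WT T3 were each apart from the library above, as was G12D T2 from WT T2. The log2 change from WT was -1.23 ± 0.13 (SE, n = 3) in E2-KO, -1.43 ± 0.13 in G12D/E2-KO and -0.10 ± 0.12 in G12D.

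Arf5 lies on chromosome 6 from 28423560 to 28426602 on the plus strand, 19.1 Mb from Ezh2, which is on the same chromosome and carries the floxed alleles. Ezh2 itself was second among the genes most like Arf5 (r = 0.97, rho = 0.90 over 12 libraries). Before it came Gphn, a scaffold protein (r = -0.98, 5.38 to 11.7 CPM), and after it Bmi1, a subunit of Polycomb repressive complex 1 (r = -0.97). Arf5 was chosen for its split, and Ezh2 was deleted in the same low libraries, so this r restates that separation. By Spearman rho Ezh2 ranked 44th. Whether the position of Arf5 near Ezh2 bears on its level was not tested. The 5 other genes with a wide gap at the same place as that of Arf5 were Ezh2, in the same direction, and Bmi1, Gkap1, Bex1 and Homer2, in the opposite one. Bmi1 was 15.5 to 21.9 CPM in WT and G12D and 65.5 to 91.7 CPM in both Ezh2-deleted genotypes. These 4 genes lie on chromosomes 2, 13, X and 7. No gene other than a listed one or these had a wide gap that matched the split of any listed gene.

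Nnt did not show a split. WT had 16.9, 17.3 and 15.4 CPM at T1, T2 and T3, E2-KO 19.5, 16.7 and 22.3 CPM, G12D 36.2, 33.8 and 28.1 CPM, and G12D/E2-KO 25.0, 17.2 and 36.5 CPM. The widest gap, between G12D T3 and G12D T2, was 0.26 log2 units and ranked 4025th of the 8856 genes. None of the 6 classes had its widest gap at the same place, and every library held 282 or more Nnt UMIs. Nnt was thus detected throughout and graded, with all G12D libraries above all WT libraries (log2 change 1.02 ± 0.20, SE, n = 3). How many of all genes separate G12D from WT in this way was not counted. Nnt lies on chromosome 13 from 119335448 to 119408997 on the minus strand. The label of a gene split between libraries is not borne out for Nnt.

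The shared cells of the T1 tables allow the listed genes to be read in cells that both tables hold. The 2896 shared cells had Ezh2 at 20.9 CPM, as in G12D/E2-KO, whereas the other 2752 cells of G12D T1 had 86.3 CPM. Tpm3-rs7 was 14.6 CPM in the shared cells, 122.9 CPM (118.0 to 127.8) in the other G12D T1 cells and 11.7 CPM (4.71 to 24.1) in the 148 other cells of G12D/E2-KO T1. Cap1 was 22.1 against 67.9 CPM, Selm 29.7 against 4.01 CPM and Arf5 160.3 against 398.9 CPM in the shared and the other G12D T1 cells. Gm12802 had 65 UMIs in the shared cells and 1 UMI in the other G12D T1 cells. Gm7102 was 27.5 against 32.8 CPM and Nnt 25.1 against 36.2 CPM. The intervals cover counting error only, and how many of all genes differ in this way between the 2 sets of cells was not counted. The shared cells make up 95.1% of the G12D/E2-KO T1 table, so that their levels resemble that library follows from how they were counted and is no separate evidence.

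**Figure D3:**
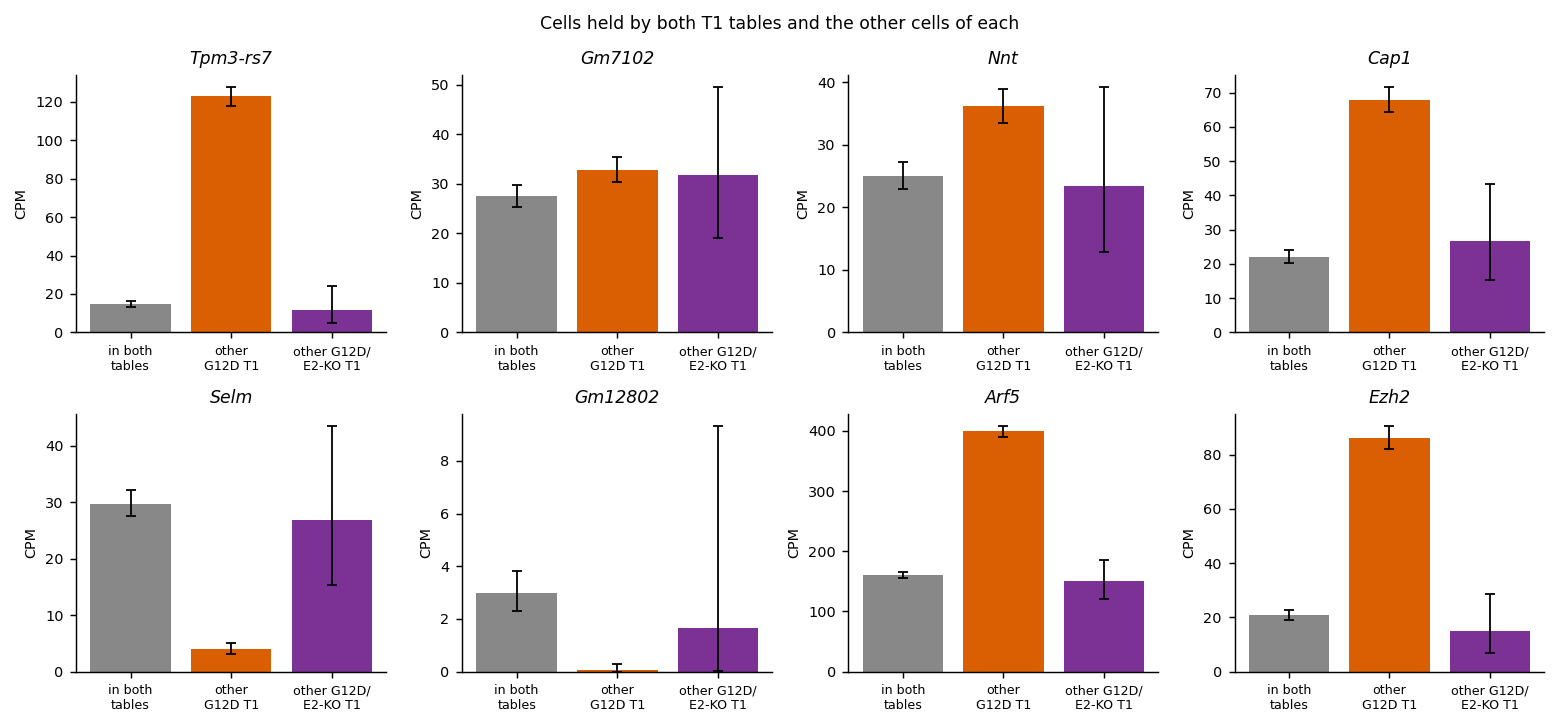
Level (CPM, y axis from 0) of the 7 listed genes and Ezh2 in the 2896 cells held by both T1 tables, in the other 2752 cells of G12D T1 and in the other 148 cells of G12D/E2-KO T1; bars are CPM and lines are exact 95% Poisson intervals. Tpm3-rs7, Cap1, Arf5 and Ezh2 are lower, and Selm and Gm12802 higher, in the shared cells than in the other G12D T1 cells.

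The splits were next read within single cell classes. The genes were chosen for these splits, and how many of all genes keep such a separation within classes was not counted. The Arf5 split was present in all 6 classes, with the widest gap at the same place in each. That place was kept in 5 of 6 classes for Tpm3-rs7 and for Gm7102, in 3 for Cap1, in 2 for Selm and in 1 for Gm12802. In MEP/early Ery Arf5 was 304.8 to 454.5 CPM in the 6 libraries of WT and G12D and 114.8 to 160.4 CPM in the 6 Ezh2-deleted libraries, and in late Ery these ranges were 1021 to 1423 CPM and 337.4 to 629.9 CPM. Cap1 of the 3 G12D libraries lay above the other 9 in 4 of 6 classes, the exceptions being HSC/MPP and late Ery, with 176 and 34 Cap1 UMIs in all. In late GN Cap1 was 121.1 to 158.8 CPM in G12D and 33.8 to 54.6 CPM in the other libraries. Selm of the G12D libraries lay below the other 9 in 4 of 6 classes and overlapped them in MEP/early Ery and late Ery, which held 57 and 10 Selm UMIs. In GMP/early GN Selm was 3.79 to 7.12 CPM in G12D and 23.4 to 86.8 CPM elsewhere. The separation was narrow in HSC/MPP, where the highest G12D library had 5.20 CPM and the lowest other library 5.69 CPM, and in late GN, at 1.37 and 1.77 CPM. Gm12802 of the G12D libraries lay below the others in 2 of 6 classes, with 6 to 42 UMIs per class, and in Nnt 1 of 6 classes had its 3 highest all-cell libraries above the rest. With under 50 UMIs of a gene in a class, an overlap says only that the split was not detectable at this depth.

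**Figure D4:**
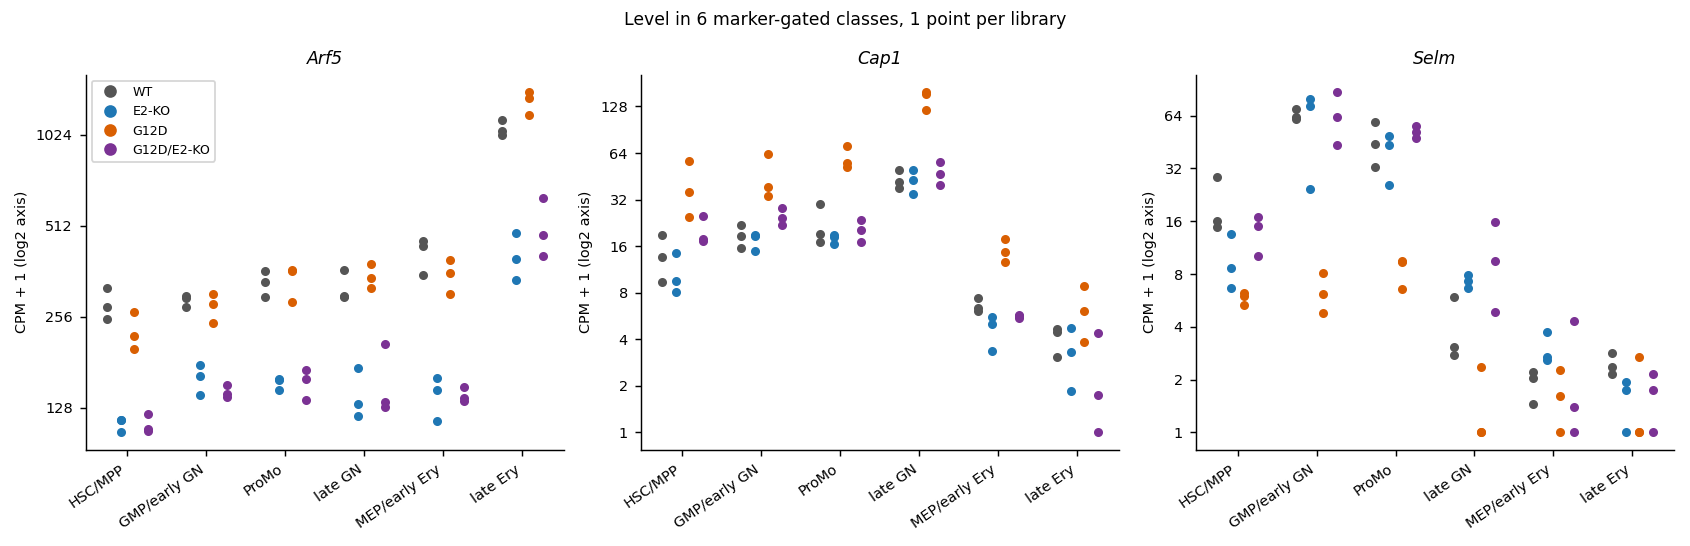
Level (CPM + 1, log2 axis) of Arf5, Cap1 and Selm in 6 marker-gated cell classes (x axis), with 1 point per library coloured by genotype. Arf5 of WT and G12D lies above both Ezh2-deleted genotypes in every class, Cap1 is highest in late GN, and Selm is highest in GMP/early GN and ProMo, where G12D is lowest.

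The difference between cell classes within a library is a measure that did not enter the choice of genes, and it was tested with the library as a block. Between GMP/early GN and MEP/early Ery 7252 of 9881 genes (73.4%) passed the threshold (adjusted p below 0.05, edgeR quasi-likelihood test with Benjamini-Hochberg adjustment), and between late GN and late Ery 6318 of 7943 genes (79.5%) did. Of the 6 listed genes tested, 4 and 5 passed, near the share of all genes. By direction, 35.5% of all genes tested were higher and 37.9% lower in GMP/early GN, and 41.4% were higher and 38.2% lower in late GN. Gm12802 was too low to be tested. The SE of a class difference was obtained from its F statistic in the same way as that of a change from WT.

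Selm had the largest log2 difference of the listed genes tested between the early classes. Over the 12 libraries it ranged from 3.79 to 86.8 CPM in GMP/early GN (median 61.2) and from 0 to 3.31 CPM in MEP/early Ery (median 1.13), higher in GMP/early GN in 12 of 12 libraries (log2 difference 5.31 ± 0.22 SE, edgeR adjusted p = 3.84e-17). In the late classes it was near the limit of detection, with a median of 4.41 CPM in late GN and 0.843 CPM in late Ery (log2 difference 2.20 ± 0.46 SE, edgeR adjusted p = 1.57e-05, higher in 9 of 12 libraries). In ProMo its median was 42.8 CPM.

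Cap1 was higher in the granulocytic than in the erythroid class at both stages, while GMP/early GN and late GN were not tested against each other. Its median over the libraries was 20.9 CPM in GMP/early GN and 4.89 CPM in MEP/early Ery (log2 difference 1.93 ± 0.14 SE, edgeR adjusted p = 1.29e-16). In late GN the median was 47.3 CPM and in late Ery 3.14 CPM (log2 difference 4.19 ± 0.18 SE, edgeR adjusted p = 1.38e-31). In both comparisons 12 of 12 libraries agreed in direction. Of the other 27 actin turnover genes, among them cofilin, profilin, capping proteins and the Arp2/3 complex, 24 of 25 tested passed as higher in GMP/early GN and 23 of 25 as higher in late GN, and none as lower, against 35.5% and 41.4% of all genes as higher.

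Tpm3-rs7 followed Tpm3 across classes. The log2 difference was 1.65 ± 0.12 (SE, edgeR adjusted p = 1.46e-16) between the early classes and 2.88 ± 0.16 (SE, edgeR adjusted p = 1.06e-25) between the late classes, and for Tpm3 it was 1.76 ± 0.07 (SE, edgeR adjusted p = 1.57e-26) and 3.01 ± 0.10 (SE, edgeR adjusted p = 7.27e-38). Tpm3-rs7 was higher in GMP/early GN in 11 of 12 libraries and in late GN in 12 of 12. Of the 3 other tropomyosins tested, Tpm3 and Tpm4 (1.94 ± 0.25 and 1.46 ± 0.26) were higher in both granulocytic classes and Tpm1 was lower in both (-1.28 ± 0.10 and -3.23 ± 0.15), while Tpm2 was too low to be tested. Gm7102 did not pass in either comparison, at -0.13 ± 0.13 (SE, edgeR adjusted p = 0.370) and 0.17 ± 0.23 (SE, edgeR adjusted p = 0.502), and neither did Mplkip, at -0.06 ± 0.07 and -0.02 ± 0.11.

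Nnt was higher in the granulocytic class in 12 of 12 libraries at both stages. Its median was 41.4 CPM in GMP/early GN and 14.6 CPM in MEP/early Ery (log2 difference 1.36 ± 0.13 SE, edgeR adjusted p = 6.65e-12), and 10.4 CPM in late GN and 2.09 CPM in late Ery (log2 difference 2.10 ± 0.28 SE, edgeR adjusted p = 5.70e-10). Of 15 other genes of mitochondrial NADPH and peroxide handling, 5 were higher and 10 lower in GMP/early GN, where 35.5% of all genes were higher and 37.9% lower. In late GN 4 were higher and 9 lower, against 41.4% and 38.2% of all genes. Idh2, which also makes mitochondrial NADPH, was higher in GMP/early GN (log2 difference 1.61 ± 0.08 SE) and lower in late GN (-0.56 ± 0.20), and the peroxiredoxin Prdx3 was lower in both (-1.19 ± 0.06 and -3.36 ± 0.10).

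Arf5 did not pass between the early classes (log2 difference -0.12 ± 0.07 SE, edgeR adjusted p = 0.133). That call depended on the setting, as Arf5 passed without a filter on low counts and without E2-KO T1 or E2-KO T3. Leaving out 1 library gave -0.17 to -0.060. In late Ery its median was 825.4 CPM against 251.4 CPM in late GN, lower in late GN in 12 of 12 libraries (log2 difference -1.88 ± 0.07 SE, edgeR adjusted p = 5.27e-35). Of the 5 other ADP-ribosylation factors, Arf1, Arf3 and Arf4 were higher in late GN by 1.54 ± 0.09, 2.45 ± 0.22 and 0.38 ± 0.12 (log2 difference ± SE). Arf2 was lower, as Arf5 was (-0.63 ± 0.23), and Arf6 did not pass. Of all genes 41.4% were higher and 38.2% lower in late GN, so that 4 of 5 passing is near the share of all genes.

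The other genes of the same families and pathways were read against the share of all genes called. Over all genes, edgeR called 217 of 13143 genes against WT in E2-KO (1.65%). It called 14 genes (0.107%) for G12D, and for G12D/E2-KO 750 genes (5.71%). The share called higher was 1.36%, 0.0837% and 3.72% in these mutants and the share called lower 0.289%, 0.0228% and 1.99%. At an unadjusted p under 0.05 the shares of all genes were 16.2%, 11.8% and 26.3%. The number called depends on the tool and the libraries: DESeq2 called 460, 142 and 1322 genes, and leaving out 1 library gave 66 to 458, 4 to 136 (136 without G12D T2) and 91 to 1368 genes. With so few genes called in G12D, a count of 0 in a list says nothing about that list. Of the 5 other ADP-ribosylation factors none passed in E2-KO or G12D (edgeR; 2 and 0 at an unadjusted p under 0.05, and 0 by DESeq2), and in G12D/E2-KO Arf3 was higher by 0.56 ± 0.13 (SE, edgeR adjusted p = 0.0347). Of 21 regulators and effectors of Arf proteins none passed in E2-KO or G12D (4 and 3 at an unadjusted p under 0.05, 0 by DESeq2), and 1 was higher in G12D/E2-KO, the GTPase-activating protein Acap2 (0.59 ± 0.15, edgeR adjusted p = 0.0440). The list medians were -0.05, 0.08 and -0.03 for the ADP-ribosylation factors in the 3 mutants in this order, against -0.01 to 0.01 for all genes.

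None of the 4 other tropomyosins passed in any genotype (edgeR; 1, 1 and 0 at an unadjusted p under 0.05 in E2-KO, G12D and G12D/E2-KO, 0 by DESeq2). Of 27 actin turnover genes other than Cap1 none passed in E2-KO or G12D (8 and 2 at an unadjusted p under 0.05; 1 and 0 by DESeq2), and in G12D/E2-KO Actr2, of the Arp2/3 complex, was higher by 0.48 ± 0.12 (edgeR adjusted p = 0.0450). Of 17 other selenoproteins tested, Selo was lower in E2-KO (-0.70 ± 0.14, edgeR adjusted p = 0.0317), none passed in G12D (2 at an unadjusted p under 0.05, 1 by DESeq2), and the mitochondrial thioredoxin reductase Txnrd2 was lower in G12D/E2-KO (-0.72 ± 0.18, edgeR adjusted p = 0.0439). Of 15 genes of mitochondrial NADPH and peroxide handling other than Nnt none passed in E2-KO or G12D (1 and 4 at an unadjusted p under 0.05, 0 by DESeq2), and Txnrd2 and Prdx3 were lower in G12D/E2-KO. These single calls do not hold when some libraries are left out: in each list with 1 or 2 calls the count was 0 in at least 1 of the 12 fits without a library. Counts also rose in such fits. In G12D/E2-KO they ranged from 0 to 4 for Arf regulators and from 0 to 5 for mitochondrial NADPH and peroxide handling.

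The neighbours of each gene on its chromosome were compared next, with up to 10 genes of a mean of 5 CPM or more on each side. None of these 11 to 20 neighbours per gene had a wide gap, which is near the share of all genes (1.68%). Arf5 and Nnt had no wide gap themselves. The only neighbour with its widest gap at the same place as the listed gene was Tceanc2, beside Gm12802. Across the 12 libraries, the median correlation of the neighbours with the listed gene was between -0.25 and 0.20. For Arf5 the neighbours reached from -0.85 to 0.37, and for Tpm3-rs7, within 10.2 Mb before and 8.56 Mb after it, from -0.45 to 0.63. These correlations share the 12 libraries and are descriptions.

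**Figure D5:**
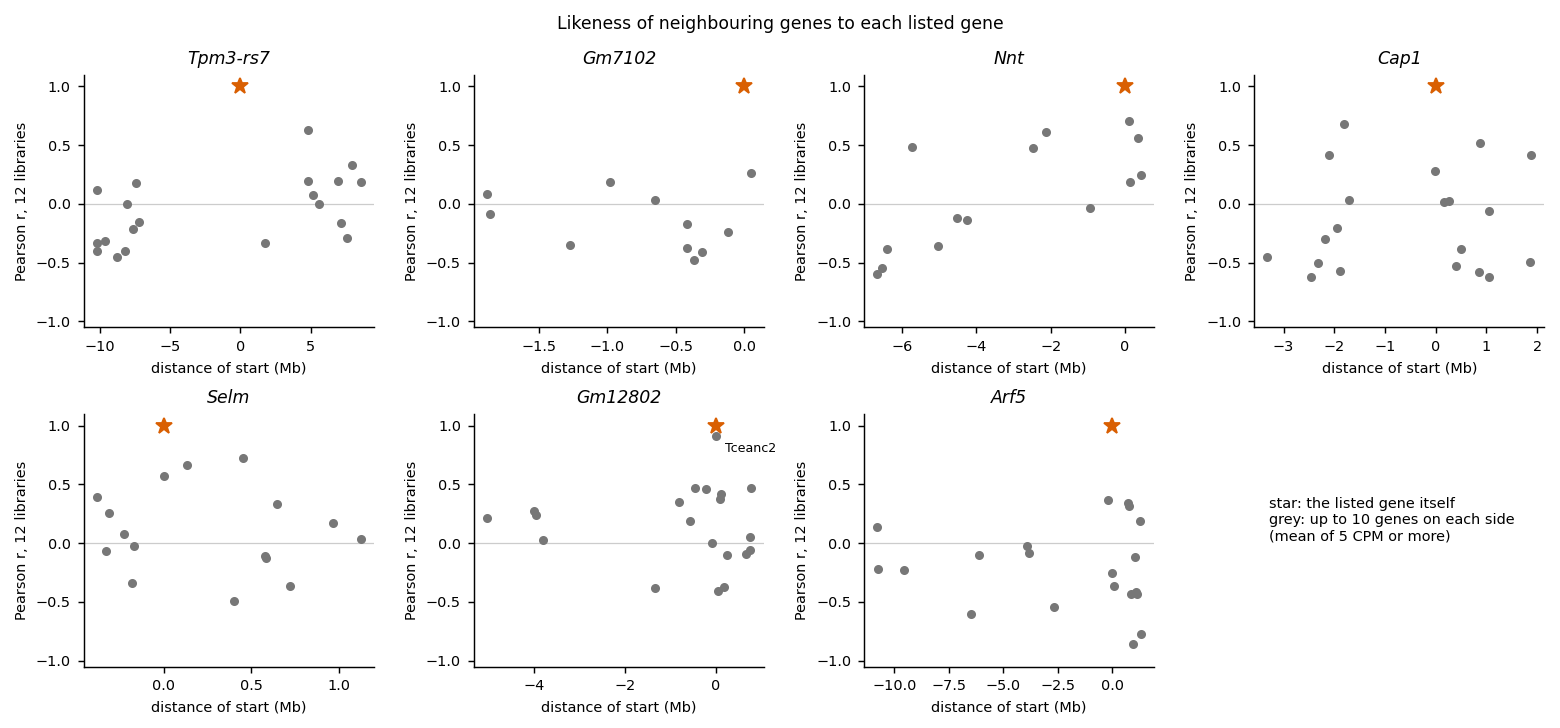
Pearson r over the 12 libraries between each listed gene (star, at distance 0) and up to 10 genes on each side (grey), against the distance of their start sites in Mb. Tceanc2, which overlaps Gm12802, has r = 0.91; neighbours of the other 6 genes lie between -0.85 and 0.73.

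The listed genes also differed from each other in their splits. Selm and Gm12802 had the same 9 libraries above the gap and the highest correlation among the 21 pairs (r = 0.91, rho = 0.69 over 12 libraries), though they lie on chromosomes 11 and 4. Cap1 had the complementary 3 libraries above its gap (r = -0.81 with Selm and -0.84 with Gm12802, while rho was only -0.40 and -0.27, so the relation rests on the separation of the G12D libraries). Tpm3-rs7 and Gm7102 had 5 high libraries in common (r = 0.68), and E2-KO T3, G12D/E2-KO T1 and G12D/E2-KO T2 were high for Gm7102 only. No listed gene had a split that matched a time point or the set of libraries with Xist.

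Genes most like each listed gene over the 12 libraries, by Pearson r among genes of a mean of 5 CPM or more, were few in common. For Tpm3-rs7 they were Vwf (r = -0.90), Gm9008 (r = 0.90) and Ift46 (r = 0.90), of which Gm9008 was also first by Spearman rho (0.94), at 11.5 to 17.6 CPM in G12D, 5.42 and 9.18 CPM in E2-KO T1 and T2, and 2.06 to 6.51 CPM elsewhere. For Gm7102 they were Urgcp (r = -0.92), Hist1h4i and Adck5 (r = -0.87). For Nnt they were Trim2 (r = -0.90), Socs6 (r = 0.85) and Alg2 (r = 0.84), and for Cap1 Tjp1 (r = -0.89), Scnn1a (r = 0.89) and Nol4l (r = -0.89). For Selm they were Tceanc2 (r = 0.89), Vwf (r = 0.82) and B3gnt8 (r = -0.81), and for Gm12802 Tceanc2, B3gnt8 (r = -0.90) and Txndc12 (r = -0.84). The choice depends on the measure: by Spearman rho, 2 of these 3 genes stayed among the first 3 for Tpm3-rs7, 1 for Gm7102, Selm and Gm12802, and 0 for Nnt, Cap1 and Arf5. Vwf then ranked 239th for Tpm3-rs7, Urgcp 218th for Gm7102, Nol4l 345th for Cap1 and Txndc12 89th for Gm12802, and for Arf5 Ezh2 ranked 44th, Gphn 212th and Bmi1 289th.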

How the data were processed

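Droplet 3' single-cell libraries of c-Kit+ bone marrow cells were aligned to mm10 with Cell Ranger by the authors, who removed doublets called by Scrublet and cells above their mitochondrial limit before deposit. The deposited tables hold raw UMI counts per gene and cell. Whether counting used the strand is not given in the sources used here. Samples were grouped by the genotype and time point in their labels. Libraries were compared for shared cells, which were kept in G12D/E2-KO T1 (Ezh2 level), and cells were gated by marker lists; Trbc2, Seli, Selh and Selv had no row in the tables used here. UMIs were summed per library and divided by the library total, with a pseudocount of 1 CPM for log2 values. Genotypes were compared with the time point as a second factor, and classes with the library as a block, using edgeR 4.0.16 (limma 3.58.1, R 4.3.3) with filterByExpr, TMM scaling and the quasi-likelihood test; p-values were adjusted over all genes by Benjamini-Hochberg with a threshold of 0.05. DESeq2 1.42.0 was an alternative, as were other scalings, filters, gates and leaving out each library. Levels and gaps used Python 3.11.15 with numpy 2.4.6, scipy 1.17.1 and pandas 2.3.3. The fits and the gap rule were tested on simulated data. The 7 genes, the gene lists and the rules were chosen with earlier results of these data known. Named were the 7 genes, the copies set beside them, Ezh2, Nras, Xist and Ddx3y. The copies were fixed by name, and no search for other copies was run. Also named were the 3 genes most like each by Pearson r and up to 5 genes with the same wide gap. List members that passed a test or were abundant were named too. Tceanc2 was also chosen as the overlapping gene, and Idh2, Tpm1 and Arf2 were named after their values were seen.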

Additional observations from a re-analysis of the deposited data

How the results depend on the processing

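Under 6 other scalings, totals, pseudocounts and cell sets, the libraries above the widest gap were the same in 6 of 6 settings for Tpm3-rs7, Gm7102, Cap1 and Arf5, in 5 of 6 for Selm and Gm12802 and in 1 of 6 for Nnt. The gap of Cap1 fell to 0.87 log2 units with the tables as deposited, in which G12D T1 holds the shared cells, and to 0.97 with equal weight per class, and that of Gm12802 rose to 1.79 with a pseudocount of 0.5 CPM. Leaving out each library gave a gap of 0.71 to 1.002 for Arf5, the highest without G12D T3. With the tables as deposited the log2 change in G12D was 1.65 for Cap1, -1.12 for Selm and -0.28 for Arf5, and 101, 8 and 446 genes were called in E2-KO, G12D and G12D/E2-KO. DESeq2 called 460, 142 and 1322 genes, and without a filter on low counts 27 genes were called in G12D; the cause was not tested. Same-numbered libraries share a time point, and their deviations from the genotype means correlated at -0.23 to 0.42, above 0.1 in 12 of 18 pairs of libraries and in all 3 pairs of E2-KO with G12D, so the check was mixed; the time point was kept in the fit as a factor of the design. Without time point or library as a replicate block, 190, 11 and 608 genes were called between genotypes and 5763 and 4603 between the early and late classes. Leaving out each library gave 66 to 458 genes in E2-KO (moved over 1.5 times without WT T2 or T3, any E2-KO library, G12D T1 or G12D/E2-KO T3), 4 to 136 in G12D (without any WT or G12D library, E2-KO T2 or G12D/E2-KO T3; 136 without G12D T2) and 91 to 1368 in G12D/E2-KO (without WT T1 or T3, E2-KO T1 or T2, G12D T1, or G12D/E2-KO T2 or T3). It gave log2 changes in E2-KO of 1.59 to 2.58 for Tpm3-rs7, -0.22 to 0.38 for Selm and -0.69 to -0.080 for Gm12802, and in G12D/E2-KO of -0.12 to 0.61 for Tpm3-rs7, 0.36 to 0.78 for Nnt, 0.43 to 0.94 for Selm, -0.24 to 0.46 for Gm12802 and 2.92 to 4.18 for Gm7102. The early class difference of Arf5 passed the threshold without a filter (-0.14, edgeR adjusted p = 0.0488) and without E2-KO T1 or T3 (range -0.17 to -0.060). The late class difference of Selm was tested in 9 of 12 fits without a library. Counts of called list members were 0 to 5 when a library was left out. In late erythroid cells, few UMIs of Selm, Nnt, Cap1 and Gm12802 limit what could be seen.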
